A study of Mus musculus with 6 samples.

Results

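The mitochondrial ribosomal protein genes were followed in CD4+ T cells of the mouse, taken as every protein-coding gene whose symbol begins with Mrpl or Mrps followed by a number. The rule found 78 genes among the 49315 in the count files, 49 of them Mrpl genes, named for the large subunit, and 29 Mrps genes, named for the small subunit. The cells were CBir1 TCR Tg CD4+ T cells, which carry a transgenic T-cell receptor for CBir1, a flagellin of commensal bacteria, and all 6 libraries are labelled as spleen cells of the C57BL/6 strain. In 5 conditions CD45.1 donor cells negative for CD44 had been transferred into CD45.2 hosts on day 0, and the hosts were immunised with 50 µg of CBir1 flagellin and 1 µg of CT on days 1 and 7. The No treatment hosts were then left alone, while those of the 4 MEP1 conditions received 3 µg of MEP1 on days 28 and 35, each time followed by 5 consecutive days of vehicle (MEP1+CMC), metformin (MEP1+Metformin), rapamycin (MEP1+Rapamycin) or both inhibitors (MEP1+Metformin+Rapamycin). All hosts were challenged with 3 µg of MEP1 on day 56 per the protocol and killed on day 63, when donor cells were sorted. The sixth library came from naive control CD4 cells of the same transgenic line. Every condition is 1 library, so a difference between 2 libraries has no replicate check. The labels do not say how many hosts a library pools.

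Mitochondria make a small set of respiratory chain proteins from their own genome on a dedicated ribosome, whose RNA is mitochondrial and whose proteins are all nuclear-encoded, made in the cytosol and imported. Many of these proteins have a counterpart in the bacterial ribosome, and the rest are mitochondria-specific additions. Activated T cells enlarge their mitochondria and need mitochondrial translation to proliferate, mTORC1, the target of rapamycin, promotes translation of mRNAs for mitochondrial proteins, and metformin acts on respiratory complex I and on AMPK.

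Library totals ran from 26139000 counts (naive control) to 60622310 (No treatment). All 78 genes had counts in every library, the lowest being 53, and all passed the minimum of 2 CPM, the count relative to its library's sum, and 10 counts in the same library that 12928 genes passed. Values below are CPM after TMM scaling, edgeR's trimmed-mean normalisation. All 8 CD4 T-cell markers were detected in every library, with a summed level of 6981 to 8915 TMM CPM. The 9 markers of macrophages and monocytes, none at 0 anywhere, summed to 3465 TMM CPM in No treatment, 446 to 724 in the MEP1 libraries and 72.6 in the naive control. Erythroid markers summed to 1614 TMM CPM in No treatment and 50.6 to 377 elsewhere. Xist, the X-inactivation RNA, stood at 257 TMM CPM in MEP1+CMC, 42.8 in the naive control, 23.0 in No treatment and at most 0.53 in the 3 inhibitor libraries. The Y-linked Ddx3y was at 67.9 to 95.9 TMM CPM in the inhibitor libraries, 34.2 in No treatment and at most 0.37 in MEP1+CMC and the naive control. The 3 inhibitor libraries are alike in both genes. In every comparison below that uses No treatment, MEP1+CMC or the naive control, the libraries also differ in one or both of these genes, and treatment and this sex-linked difference cannot be told apart. The part of the other cells in the results was not tested. The header of the count column of the No treatment file names no challenge, against the protocol, and the label was used. In whole-library measurements, fewer cells with a transcript and less transcript per cell cannot be told apart.

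Summed over the 78 genes, the naive control held most mitochondrial ribosomal protein mRNA and MEP1+Metformin least. The sum was 4813 TMM CPM in the naive control, 4059 in No treatment, 3988 in MEP1+Rapamycin, 3481 in MEP1+CMC, 3114 in MEP1+Metformin+Rapamycin and 2933 in MEP1+Metformin. As shares of all counts, without TMM, the order differed. MEP1+Rapamycin held 0.418%, No treatment 0.405%, MEP1+CMC 0.363%, MEP1+Metformin+Rapamycin 0.352%, the naive control 0.345% and MEP1+Metformin 0.333%. The place of the naive control therefore rested on scaling, and 15.4% of its counts fell on 5 rRNA-like loci (Gm23935, Gm26917, Gm42418, Gm15564 and Lars2), against 1.00% to 3.13% in the other libraries. Gene by gene, 50 genes had their highest TMM CPM in the naive control, 14 in No treatment, 13 in MEP1+Rapamycin and 1, Mrps2, in MEP1+Metformin+Rapamycin. The lowest value fell in MEP1+Metformin for 49 genes and in MEP1+Metformin+Rapamycin for 16. Among the 5 transferred libraries alone, 42 genes peaked in No treatment and 33 in MEP1+Rapamycin, and 50 were lowest in MEP1+Metformin. The highest and lowest libraries were not counted over all genes kept. These counts therefore do not tell whether the 78 differ from other genes.

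**Figure D1:**
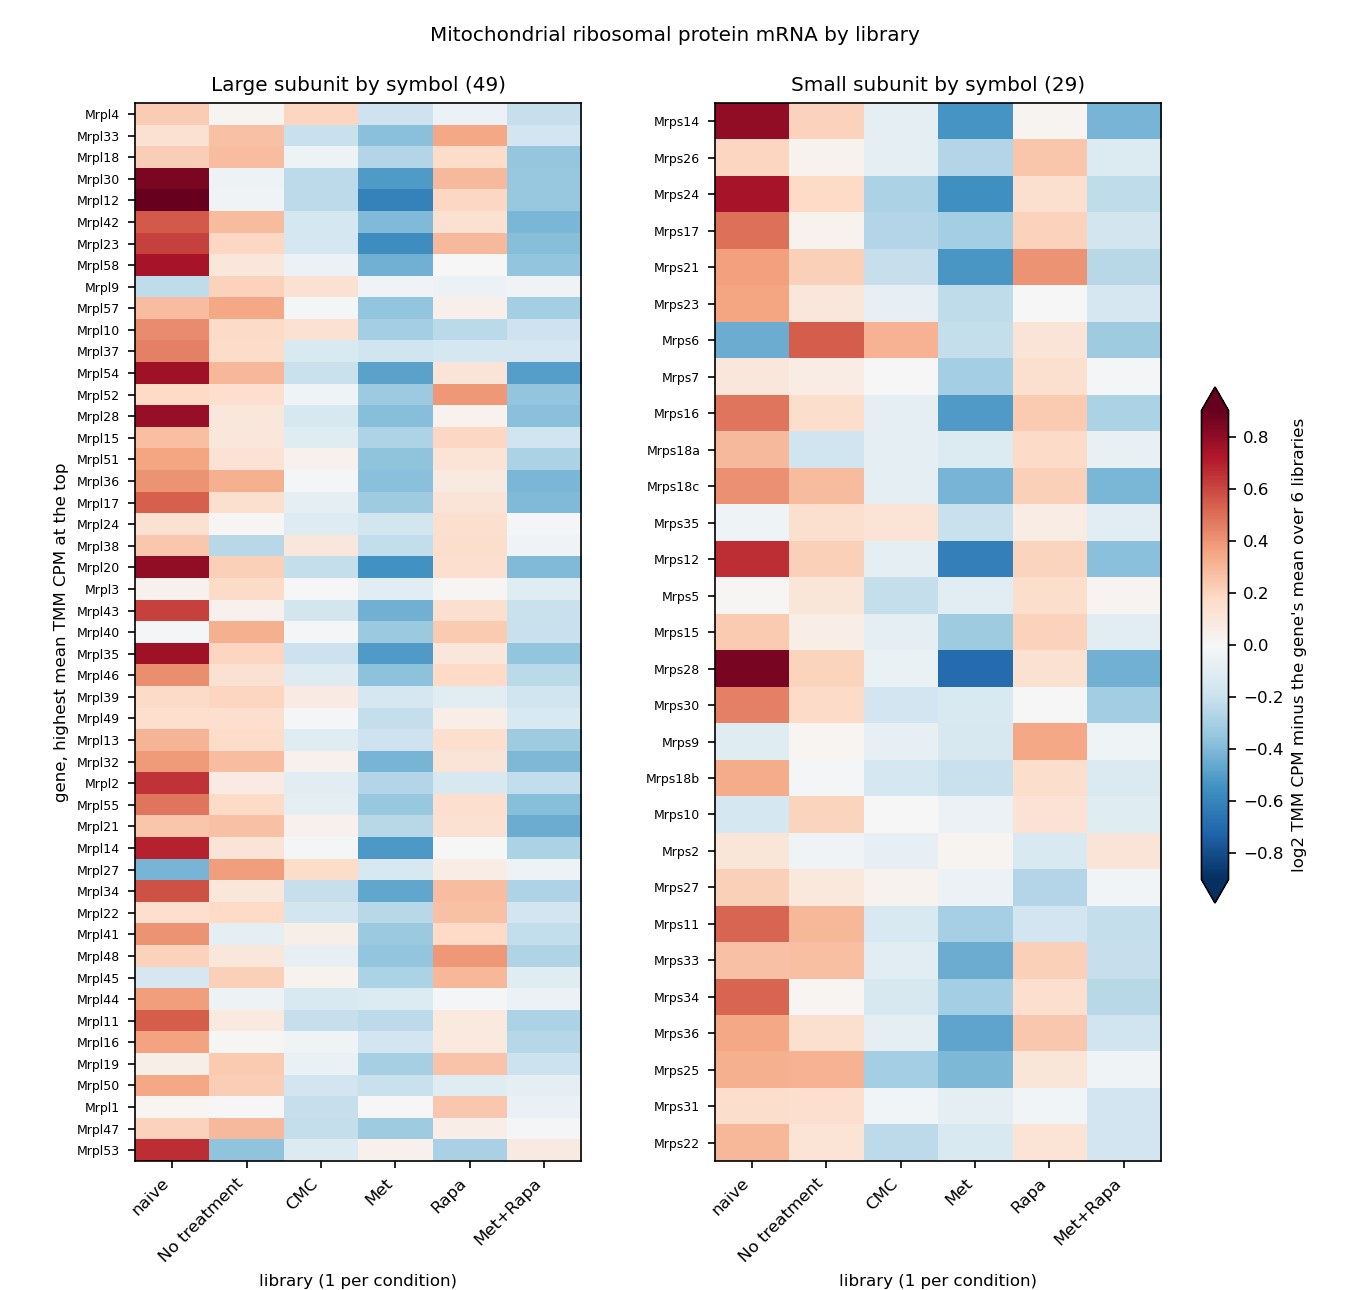
Each row is a mitochondrial ribosomal protein gene and each column 1 library, with the color giving log2 TMM CPM minus the gene's mean over the 6 libraries; Mrpl genes are on the left and Mrps genes on the right, highest mean level at the top. The naive control column is mostly red and the MEP1+Metformin column mostly blue, where 50 genes had their highest and 49 their lowest value. The same was not counted over all genes. Mrps6 and Mrpl27 are among the exceptions, blue in the naive control.

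Levels between genes were compared per length, as TMM CPM per kilobase of the exon length in the files (RPKM). The highest mean levels over the 6 libraries were those of Mrpl42 (114 RPKM), a mitochondria-specific protein, Mrps16 (93.2 RPKM), Mrps21 (79.6 RPKM), Mrpl54 (76.9 RPKM) and Mrpl36 (64.2 RPKM). The lowest, in rising order, were Mrpl47 (2.45 RPKM), Mrpl53, Mrps25 (2.98 RPKM), Mrps22 (3.25 RPKM) and Mrps10 (3.67 RPKM). The files give the length of all annotated exons of a gene together, so the RPKM of a gene with long rarely used exons is low by construction. Median RPKM was 26.2 in the naive control, 23.9 in MEP1+Rapamycin, 22.5 in No treatment, 20.6 in MEP1+CMC, 18.7 in MEP1+Metformin+Rapamycin and 17.7 in MEP1+Metformin. The median range of a gene over the 6 libraries was 0.72 on the log2 scale, against 0.94 over all genes kept, which include genes of lower count. The smallest range belonged to Mrps2, a small-subunit protein with a bacterial counterpart, at 0.25, between 26.5 TMM CPM in MEP1+Rapamycin and 31.5 in MEP1+Metformin+Rapamycin. The widest ranges were those of Mrpl12, at 1.64, and Mrps28, at 1.55.

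RefSeq promoters, taken as 250 bases before to 50 after the start on GRCm38.p6, were matched by symbol for 69 of the 78 genes. The 8-letter core AAGATGGC of the YY1 motif, searched on both strands as all motifs were, stood in 12 of the 69 (17.4%), against 5.05% of the promoters of the 9141 matched genes kept. The ETS motif CCGGAAGT stood in 11 (15.9%, against 9.13%). The full palindromic site of NRF1, nuclear respiratory factor 1, stood in Mrpl32, Mrpl39 and Mrpl9 (4.35%, against 2.24%). The shorter form TGCGCA, which can overlap the full site, stood in 21 (30.4%, against 15.2%). The E-box CACGTG stood in 5 (7.25%, against 10.3%), the SP1 motif GGGCGG in 34 (49.3%, against 64.1%), CCAAT in 27 (39.1%, against 39.2%) and TATAAA in 4 (5.80%, against 6.92%). Median GC content was 58.3% for these genes and 60.7% for the genes kept. In MEP1+Rapamycin against MEP1+CMC, described below, genes with an SP1 match had a median log2 ratio of 0.29 and those without 0.13. The medians were 0.12 and 0.26 for YY1 and 0.10 and 0.25 for the E-box, the last with 5 genes only. They were closer for TGCGCA (0.20 and 0.26), ETS (0.30 and 0.24) and CCAAT (0.21 and 0.26). In MEP1+Metformin against MEP1+CMC they were -0.26 and -0.17 for SP1 and -0.26 and -0.24 for YY1. Not all comparisons are given, and differences by motif were not tested. The 250 bases before the RefSeq start are shown for 5 genes the results turn on, 5′ to 3′ on the gene's strand, with YY1, ETS and NRF1 matches on either strand in capitals. They are Mrpl12, lowest against the naive control and without a match (chr11:120484387-120484636, plus strand); Mrps6, highest against the naive control (chr16:92058086-92058335, plus strand); Mrps12, which starts head to head with Sars2 (chr7:28741822-28742071, minus strand); Mrpl32, with both NRF1 and YY1 matches (chr13:14613038-14613287, minus strand); and Mrps18c, with an ETS match (chr5:100798509-100798758, plus strand).
Mrpl12: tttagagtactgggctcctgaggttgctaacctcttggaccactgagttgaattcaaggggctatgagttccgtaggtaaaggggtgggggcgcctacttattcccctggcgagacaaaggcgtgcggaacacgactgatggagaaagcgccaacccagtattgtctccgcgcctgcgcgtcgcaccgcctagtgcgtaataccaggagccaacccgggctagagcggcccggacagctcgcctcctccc
Mrps6: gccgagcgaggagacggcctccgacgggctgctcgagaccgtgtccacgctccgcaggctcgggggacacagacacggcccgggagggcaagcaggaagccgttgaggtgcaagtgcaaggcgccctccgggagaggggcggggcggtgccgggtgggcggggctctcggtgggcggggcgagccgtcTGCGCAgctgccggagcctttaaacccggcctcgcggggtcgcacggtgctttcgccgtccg
Mrps12: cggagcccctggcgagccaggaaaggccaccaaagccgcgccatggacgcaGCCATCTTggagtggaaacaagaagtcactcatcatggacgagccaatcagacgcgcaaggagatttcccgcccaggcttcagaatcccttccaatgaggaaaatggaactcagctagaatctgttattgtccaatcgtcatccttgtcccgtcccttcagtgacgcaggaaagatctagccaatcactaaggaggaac
Mrpl32: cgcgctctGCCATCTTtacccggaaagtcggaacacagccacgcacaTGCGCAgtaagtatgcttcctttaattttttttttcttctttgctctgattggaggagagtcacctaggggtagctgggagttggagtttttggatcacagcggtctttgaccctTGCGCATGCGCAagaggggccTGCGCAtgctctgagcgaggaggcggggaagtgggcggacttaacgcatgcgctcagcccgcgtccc
Mrps18c: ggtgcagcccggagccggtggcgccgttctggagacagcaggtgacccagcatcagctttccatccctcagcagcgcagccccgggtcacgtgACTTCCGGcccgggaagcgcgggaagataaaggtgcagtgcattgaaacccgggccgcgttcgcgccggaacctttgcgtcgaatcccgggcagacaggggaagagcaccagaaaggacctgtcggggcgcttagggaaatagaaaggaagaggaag
A match gives letters in a sequence and not a bound site. The YY1 match of Mrps12 ends 191 bases before the start, the TGCGCA match of Mrps6 56 bases before it, the ETS match of Mrps18c 149 bases before it and the NRF1 match of Mrpl32 77 bases before it. The YY1 match of Mrpl32 ends 234 bases before its start. Both YY1 matches lie beyond the start of the head-to-head partner, 172 bases away for Mrps12 (Sars2) and 205 for Mrpl32 (Psma2).

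For each pair of libraries, a gene was counted as higher or lower when the TMM log2 ratio was at least 1.5-fold and its exact 95% interval excluded no change. The interval covers the counting of reads only and holds no spread between animals or preparations. Copies of a molecule made in amplification were counted as separate reads, so it can be too narrow even for the sampling of molecules.

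The first comparison set cells that had been transferred and immunised against naive cells. In No treatment the 78 genes had a median log2 ratio of -0.19 to the naive control, against 0.03 over all genes kept, with 58 below 0, where 48.2% of all genes were, and 20 above, where 51.8% were. The counting interval lay below no change for 48 genes, where it did for 37.6% of all genes, and above it for 10, where it did for 39.5%. Of the 78, 7 were at least 1.5-fold lower, where 17.7% of all genes were, and 2 were higher, where 22.3% were. Both counts were below the share of all genes. Among the 7272 genes with at least 10 CPM in every library, 1159 were lower and 699 higher. The direction depended on the scaling: with library totals the median was 0.286, where that of all genes was 0.505, and 11 genes were called higher and 0 lower, and without the rRNA-like loci in the totals it was 0.059, with 6 higher and 3 lower. Mrpl12, the protein of the large-subunit stalk that recruits translation factors (chromosome 11, 120484613 to 120489065, plus strand), was furthest down. Its level was 145 TMM CPM in the naive control, 69.6 in No treatment, 60.4 in MEP1+CMC, 46.7 in MEP1+Metformin, 81.0 in MEP1+Rapamycin and 56.3 in MEP1+Metformin+Rapamycin. All 5 transferred libraries lay below the naive control, and in No treatment the log2 ratio was -1.06 (interval -1.13 to -0.99). Mrpl10, which anchors that stalk, stood at 93.0 TMM CPM in the naive control and 78.2 in No treatment. The others counted as lower were Mrpl30 at -0.89, Mrpl28 at -0.68, Mrps28 at -0.65, Mrpl58, a peptidyl-tRNA hydrolase built into the large subunit, at -0.64, and Mrps14 at -0.59. The last, Mrpl53, at -1.03, lay below the 10 TMM CPM set for naming genes, at 3.04 in the naive control and 1.49 in No treatment, with an interval of -1.53 to -0.53. Mrpl12 and Mrpl53 were also at least 2-fold lower, where 8.2% of all genes were.

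Mrps6 and Mrpl27 went the other way. Mrps6, a small-subunit protein with a bacterial counterpart (chromosome 16, 92058270 to 92112227, plus strand), was at 40.1 TMM CPM in the naive control, 79.7 in No treatment, 67.9 in MEP1+CMC, 47.1 in MEP1+Metformin, 59.1 in MEP1+Rapamycin and 43.7 in MEP1+Metformin+Rapamycin. All transferred libraries were above the naive control, with both metformin libraries nearest to it, and the log2 ratio in No treatment was 0.99 (interval 0.88 to 1.10). Mrpl27, whose bacterial counterpart reaches the peptidyl transferase centre, was at 26.8 TMM CPM in the naive control and 46.5 in No treatment, a log2 ratio of 0.79, and the 4 MEP1 libraries lay between 32.4 and 40.2. Mrpl9 (0.43), Mrps10 (0.36), Mrpl45 (0.36) and Mrpl40 (0.34) followed, all under 1.5-fold.

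A fit of all 5 transferred libraries against the naive control asked which genes differed beyond the spread among the differently treated transferred libraries. By edgeR's quasi-likelihood test with Benjamini-Hochberg adjustment over 12928 genes, 5 of the 78 fell and 0 rose, where 5.87% of all genes fell and 4.51% rose. The number that fell is near the share of all genes. All 5 are large-subunit proteins, and 49 of the 78 are Mrpl genes. Mrps28 and Mrps14 had fold changes of similar size, -0.98 and -0.93, but did not pass. Mrpl12 fell by 1.21 on the log2 scale (SE 0.25, adjusted p = 0.0226). Mrpl30 fell by 0.99 (SE 0.26, adjusted p = 0.0485), Mrpl28 by 0.92 (SE 0.22, adjusted p = 0.0341), Mrpl58 by 0.88 (SE 0.22, adjusted p = 0.0415) and Mrpl2, next to the peptidyl transferase centre, by 0.78 (SE 0.19, adjusted p = 0.0352). Each of the 5 was lower in 5 of 5 transferred libraries. That adds no separate support, since the fit selected these genes and the naive library is shared. Of the 78, 70 had a fold change below 0, and their median was -0.40, where the median of all genes was 0.08. The share of all genes on each side of 0 was not counted in this fit or in those below. The naive group is 1 library, assumed to vary like the transferred ones. With library totals in place of TMM, the median of all genes moved from 0.08 to 0.66 and that of the 78 from -0.40 to 0.17. The 5 named genes stayed below 0 there, from -0.64 (Mrpl12) to -0.20 (Mrpl2), but no longer passed. The genes of the 78 that rose with library totals were others. The calls were lost without MEP1+CMC or without MEP1+Metformin+Rapamycin, and only that of Mrpl12 held without MEP1+Metformin. Without No treatment more of the 78 passed. In each of these fits the number of all genes that fell moved the same way. The median over the 78 stayed between -0.45 and -0.34 with any 1 transferred library left out.

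MEP1 without inhibitor was compared with no MEP1 before the challenge, in MEP1+CMC against No treatment. Nearly all of the genes were slightly lower with MEP1+CMC: 73 lay below 0, where 49.4% of all genes did, and 5 above, where 50.6% did. The median was -0.22, against 0.01 over all genes kept, and the counting interval lay wholly below no change for 65 genes, where it did for 37.2% of all genes, and above it for 4, where it did for 38.4%. Only Mrps25 was at least 1.5-fold lower, where 6.85% of all genes were, and 0 were higher, where 15.2% were. Among the 7272 genes with at least 10 CPM in every library, 139 were lower and 232 higher. Mrps25, a mitochondria-specific small-subunit protein, stood at 23.9 TMM CPM in No treatment and 15.6 in MEP1+CMC, a log2 ratio of -0.62 (interval -0.74 to -0.50). With library totals, with or without the rRNA-like loci, 0 genes were called. Next were Mrpl47 at -0.51, Mrpl54 at -0.50, Mrpl33 at -0.47, Mrps24 at -0.46 and Mrpl42 at -0.44. The genes above 0 with at least 10 TMM CPM were Mrpl38 (0.35), Mrpl4 (0.17), Mrpl41 (0.13) and Mrps18a (0.09).

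In the fit of the 4 MEP1 libraries against No treatment, 0 of the 78 passed edgeR's quasi-likelihood test after adjustment, where 0.99% of all genes fell and 0.364% rose, and DESeq2's Wald test also called 0. At an unadjusted p below 0.05, 2 were lower, where 5.86% of all genes were. That count was 28 without MEP1+Rapamycin, where 10.7% of all genes were lower, 12 with TMM over all genes, 0 with library totals, and 0 without MEP1+Metformin or without MEP1+Metformin+Rapamycin. The 2 were Mrps11, at a log2 fold change of -0.51 (SE 0.18), and Mrpl57, at -0.50 (SE 0.20), with edgeR adjusted p = 0.21 and 0.257. The median over the 78 was -0.25, where that of all genes was 0.01, and 72 lay below 0. These libraries also differ in macrophage and erythroid markers, with the sums given above.

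The inhibitors were each compared with vehicle. In MEP1+Metformin against MEP1+CMC the median log2 ratio of the 78 genes was -0.24, against -0.01 over all genes kept, with 71 below 0, where 51% of all genes were, and 7 above, where 49% were. The counting interval lay below no change for 56 genes, where it did for 36.2% of all genes, and above it, where it did for 34.9% of all genes, for 2, Mrpl1 at 0.21 and Mrps5 at 0.12. Mrps28 alone was at least 1.5-fold lower, where 6.86% of all genes were, and 0 were higher, where 8.22% were. Among the 7272 genes with at least 10 CPM in every library, 135 were lower and 116 higher. Mrps28 (chromosome 3, 8802146 to 8923918, minus strand), a small-subunit protein, was at 67.5 TMM CPM in the naive control, 42.9 in No treatment, 35.9 in MEP1+CMC, 23.1 in MEP1+Metformin, 41.1 in MEP1+Rapamycin and 27.7 in MEP1+Metformin+Rapamycin. Both metformin libraries were lowest, and the log2 ratio of MEP1+Metformin to MEP1+CMC was -0.64 (interval -0.74 to -0.53). The call was lost, with 0 genes called, with library totals of either kind and with the length trend removed. Next were Mrps6 at -0.53, Mrps12 at -0.52, Mrpl14 at -0.51, Mrpl32 at -0.46 and Mrps14 at -0.45. Mrps12, the counterpart of the bacterial decoding-centre protein, stood at 69.6 TMM CPM in the naive control, 51.0 in No treatment, 41.4 in MEP1+CMC, 28.8 in MEP1+Metformin, 50.5 in MEP1+Rapamycin and 34.0 in MEP1+Metformin+Rapamycin. As for Mrps28, the lowest libraries were the 2 with metformin.

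Rapamycin went with higher values. In MEP1+Rapamycin against MEP1+CMC the median was 0.25, against 0.03 over all genes kept, with 65 genes above 0, where 52.7% of all genes were, and 13 below, where 47.3% were. The interval lay above no change for 53 genes, where it did for 40.1% of all genes, and below it for 7, where it did for 35.7%. Mrps21 alone was at least 1.5-fold higher, where 16% of all genes were, and 0 were lower, where 9.88% were. Mrps21, a small-subunit protein with a bacterial counterpart (chromosome 3, 95862634 to 95871519, minus strand), was at 75.5 TMM CPM in MEP1+Rapamycin, 73.8 in the naive control, 66.3 in No treatment, 49.4 in MEP1+CMC, 48.0 in MEP1+Metformin+Rapamycin and 39.8 in MEP1+Metformin. MEP1+Rapamycin was the highest library, and its log2 ratio to MEP1+CMC was 0.61 (interval 0.54 to 0.69). With DESeq2 size factors or TMM over all genes 0 genes were called, and the latter gave a median of 0.0967. Mrpl33 (0.55), Mrpl30 (0.53), Mrpl34 (0.49), Mrps17 (0.47) and Mrpl48 (0.47) came next. At the low end stood Mrpl10 at -0.38, Mrps27 at -0.30, Mrpl4 at -0.24, Mrps6 at -0.20, Mrpl9 at -0.19 and Mrpl39 at -0.18. The stalk proteins thus went apart in this comparison, with Mrpl12 at 60.4 TMM CPM in MEP1+CMC and 81.0 in MEP1+Rapamycin, and Mrpl10 at 76.2 and 58.5.

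Set against No treatment in place of MEP1+CMC, the rapamycin library without metformin had a median near 0. In this comparison, chosen after the data were seen, the median of MEP1+Rapamycin was -0.03, with 34 genes above 0, where 50.7% of all genes were, 44 below, where 49.3% were, and 0 at least 1.5-fold apart, where 20.8% of all genes were higher and 11.3% lower. For metformin the direction stayed and the size grew: against No treatment the median of MEP1+Metformin was -0.47, with 74 genes below 0, where 49.6% of all genes were, and 4 above, where 50.4% were. At least 1.5-fold lower were 24, where 12.9% of all genes were, and 0 higher, where 19% were. The furthest down were Mrps28 (-0.89), Mrps12 (-0.83), Mrpl54 (-0.78), Mrpl20 (-0.76), Mrps6 (-0.76) and Mrpl23 (-0.74). MEP1+Metformin+Rapamycin had a median of -0.36 against No treatment, with 74 genes below 0, where 50.3% of all genes were, and 4 above, where 49.7% were. Here 13 were at least 1.5-fold lower, where 11% of all genes were, and 0 higher, where 18.1% were, Mrps6 (-0.87) and Mrpl54 (-0.79) first. These comparisons share the No treatment library. The larger size for metformin includes the shift of MEP1+CMC against No treatment given above. Exon length, described below, also moved with these ratios. With its trend over all genes removed, the medians were -0.23 for MEP1+Metformin, -0.24 for MEP1+Metformin+Rapamycin and -0.02 for MEP1+Rapamycin.

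With both inhibitors, the genes lay nearer to those of metformin than of rapamycin. MEP1+Metformin+Rapamycin had a median of -0.13 against MEP1+CMC, with 62 genes below 0, where 50.3% of all genes were, and 16 above, where 49.7% were. The interval lay below no change for 48 genes, where it did for 35.7% of all genes, and above it for 7, where it did for 34.8%. Mrps6 alone was at least 1.5-fold lower, where 7.81% of all genes were, at a log2 ratio of -0.64 (interval -0.71 to -0.56), and 0 were higher, where 8.47% were. With library totals of either kind or with the length trend removed 0 genes were called, and the medians with totals were -0.0164 and, without the rRNA-like loci, -0.0139. Mrpl21 (-0.48), Mrpl32 (-0.44), Mrpl4 (-0.40) and Mrpl36 (-0.39) followed, while Mrps25 (0.28), Mrps5 (0.24), Mrpl47 (0.19) and Mrps2 (0.19) stood highest. Against MEP1+Metformin the same library had a median of 0.08, with 58 genes above 0, where 51.4% of all genes were, and 20 below, where 48.6% were. The interval lay above no change for 37 genes, where it did for 28.5% of all genes, and below it for 5, where it did for 26.8%. Of the 78, 0 were 1.5-fold apart, where 3.61% of all genes were higher and 5.01% lower. Mrps25 (0.37), Mrps24 (0.32), Mrpl47 (0.31) and Mrps36 (0.30), a small protein since assigned to the 2-oxoglutarate dehydrogenase complex, were highest, and Mrpl21 (-0.20), Mrps30 (-0.17) and Mrpl13 (-0.13) lowest.

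Against MEP1+Rapamycin, MEP1+Metformin+Rapamycin was lower for most of the genes. The median was -0.37, against -0.03 over all genes kept, with 71 genes below 0, where 52.6% of all genes were, and 7 above, where 47.4% were. The interval lay below no change for 65 genes, where it did for 39.1% of all genes, and above it for 2, where it did for 34.9%. At least 1.5-fold lower were 7 genes (where 14.3% of all genes were), and 0 were higher, where 7.38% were. These were Mrpl52 (-0.75, interval -0.83 to -0.67), Mrpl23 (-0.68), Mrpl48 (-0.66), Mrps21 (-0.65), Mrpl30 (-0.63), Mrps18c (-0.62) and Mrpl54 (-0.61). With library totals or TMM over all genes 1 gene was called, and 2 without the rRNA-like loci in the totals. Mrpl52, a mitochondria-specific large-subunit protein, was at 78.7 TMM CPM in MEP1+Rapamycin, 68.1 in the naive control, 66.5 in No treatment, 58.7 in MEP1+CMC, 47.8 in MEP1+Metformin and 46.8 in MEP1+Metformin+Rapamycin. The libraries with metformin were again lowest. Both libraries of this comparison hold Ddx3y and at most 0.53 TMM CPM of Xist, so it does not carry the sex-linked difference named above. Above 0 stood Mrps2 (0.25) and Mrps27 (0.24), and Mrpl10 (0.06) had an interval that included no change.

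**Figure D2:**
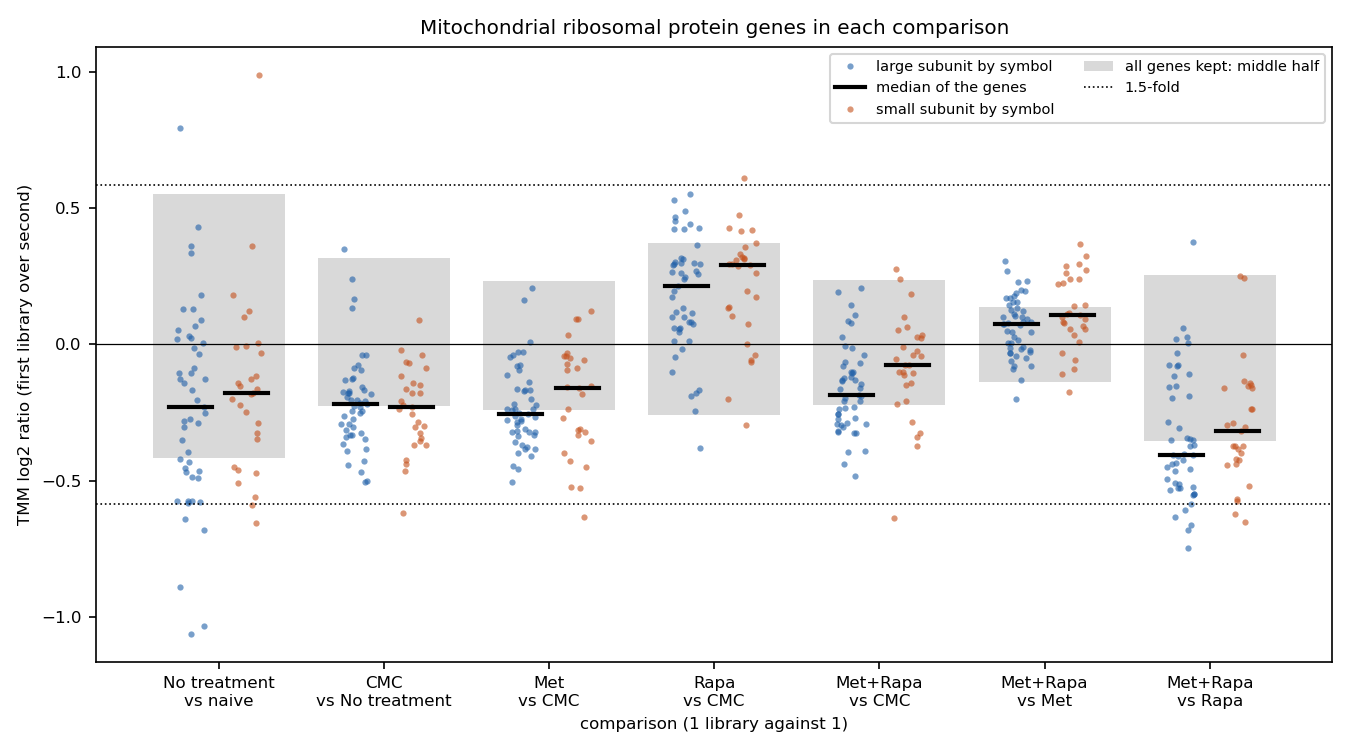
TMM log2 ratio of every mitochondrial ribosomal protein gene in the 7 comparisons of 1 library against another; Mrpl genes are blue, Mrps genes orange, black bars their medians, the grey box the middle part, from lower to upper quartile, of all genes kept, and dotted lines mark 1.5-fold. The clouds sit off 0 as a body, down in MEP1+Metformin against MEP1+CMC (median -0.24) and up in MEP1+Rapamycin against MEP1+CMC (median 0.25), with few points past 1.5-fold.

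An additive fit of the 4 MEP1 libraries, with a metformin and a rapamycin term and 1 residual degree of freedom, tested each inhibitor over both of its libraries. For metformin 0 of the 78 passed edgeR's quasi-likelihood test after adjustment, where 0.101% of all genes fell and 0.0232% rose, and DESeq2's Wald test called 0. At an unadjusted p below 0.05, 30 of the 78 were lower and 0 higher, where 6.46% of all genes were lower and 4.42% higher. The 30 were 11 with library totals, 5 with TMM over all genes, where 2.89% of all genes were lower, and 15 with DESeq2's Wald test. The lowest p-values in that edgeR fit were those of Mrpl23 at a log2 fold change of -0.54 (SE 0.16), Mrps28 at -0.60 (SE 0.18), Mrps12 at -0.55 (SE 0.17), Mrpl52 at -0.52 (SE 0.17), Mrps6 at -0.48 (SE 0.16) and Mrps14 at -0.45 (SE 0.15), with adjusted p from 0.301 to 0.334. The median over the 78 was -0.28, where that of all genes was -0.01, and 75 lay below 0. For rapamycin 0 of the 78 passed by either tool, where 0.0696% of all genes rose and 0.162% fell by edgeR. At an unadjusted p below 0.05, 5 were higher and 0 lower, where 3.64% of all genes were higher. With TMM over all genes 0 were higher, with DESeq2 size factors 3 and with DESeq2's Wald test 1. The 5 were Mrps21 at 0.44 (SE 0.16), Mrps24 at 0.38 (SE 0.15), Mrpl33 at 0.38 (SE 0.16), Mrpl12 at 0.35 (SE 0.15) and Mrpl30 at 0.35 (SE 0.16), with edgeR adjusted p from 0.544 to 0.661. The median was 0.15, where that of all genes was 0.02, and 68 lay above 0. With TMM over all genes the median was 0.08, where that of all genes was -0.05, and 53 lay above 0.

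Metformin without rapamycin (MEP1+Metformin against MEP1+CMC) and with it (MEP1+Metformin+Rapamycin against MEP1+Rapamycin) use 4 different libraries, so they can be set side by side. In both, 66 of the 78 genes lay below 0 (84.6%), where 30.6% of all genes did, and 2, Mrps2 and Mrpl53, lay above 0 in both. Pearson's r across the 78 genes was 0.51, and -0.05 across all genes kept. This was not particular to the 78. Of nuclear respiratory chain genes 89.9% lay below 0 in both, with an r of 0.60. Of cytosolic ribosomal proteins 93.4% did, with an r of 0.23. Each r is a description, since genes share libraries, depth and exon length. Rapamycin without metformin (median 0.25) and with it (median 0.08) also use separate libraries. Here 48 genes lay above 0 in both (61.5%), where 30.8% of all genes did. The r was 0.35 across the 78 and 0.05 across all genes kept. Above 0 in both lay 67.4% of nuclear respiratory chain genes (r 0.30) and 100% of cytosolic ribosomal proteins (r 0.39).

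**Figure D3:**
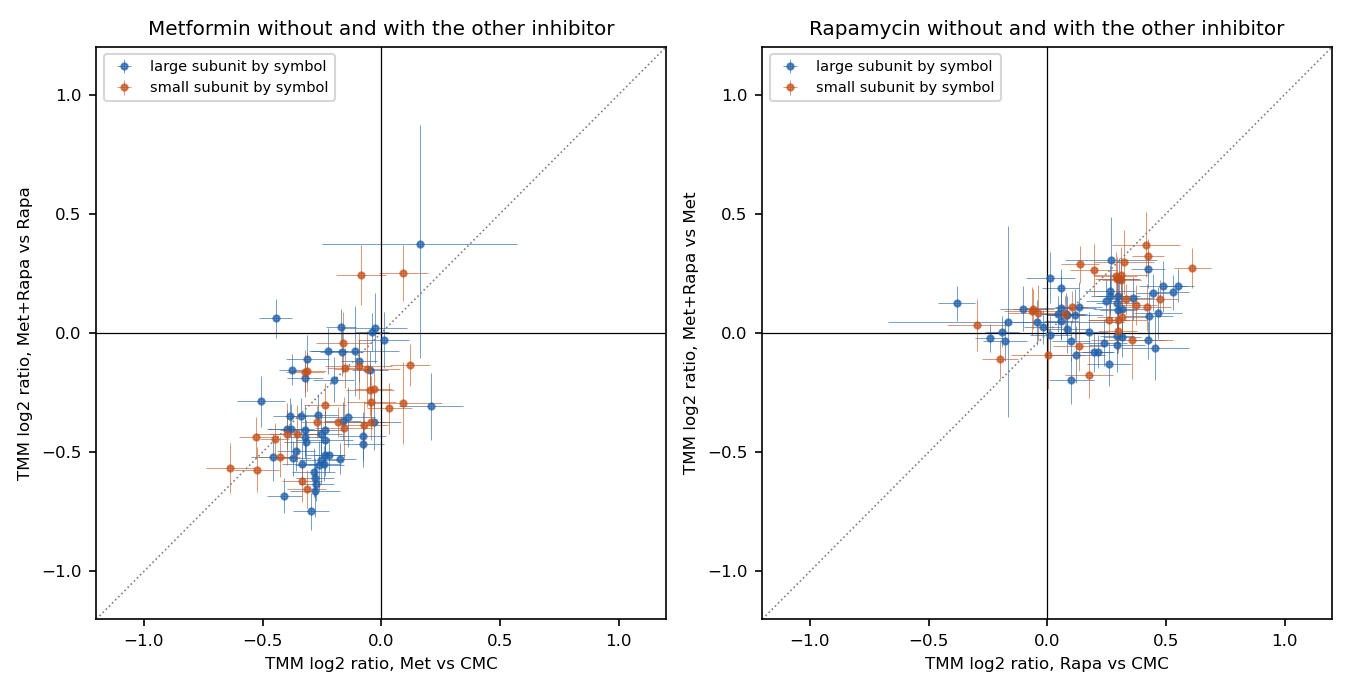
TMM log2 ratio of each mitochondrial ribosomal protein gene for metformin (left) and rapamycin (right), without the other inhibitor on the x axis and with it on the y axis (Met is MEP1+Metformin, Rapa MEP1+Rapamycin, Met+Rapa both, CMC vehicle); bars are exact 95% counting intervals and the dotted line marks equal ratios. On the left 66 of the 78 genes fall below 0 on both axes, and on the right the points lie flatter, with a median of 0.25 on the x axis and 0.08 on the y axis.

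Median log2 ratios of Mrpl and Mrps genes were -0.23 and -0.18 in No treatment against the naive control, -0.22 and -0.23 in MEP1+CMC against No treatment, -0.26 and -0.16 in MEP1+Metformin against MEP1+CMC, and 0.21 and 0.29 in MEP1+Rapamycin against MEP1+CMC. They were -0.19 and -0.07 with both inhibitors against MEP1+CMC, 0.08 and 0.11 against MEP1+Metformin, and -0.40 and -0.32 against MEP1+Rapamycin. In every one of the 7, the subunit medians lay on the same side of 0. The difference between the subunits was not tested. Symbols do not always give the subunit: Mrps30 and Mrps18a sit in the large subunit, and moving them there gave 51 and 27 genes and medians of -0.25 and -0.18 for MEP1+Metformin against MEP1+CMC. The 46 genes with a bacterial counterpart and the 32 mitochondria-specific ones had medians of -0.25 and -0.23 in that comparison and 0.26 and 0.21 in MEP1+Rapamycin against MEP1+CMC.

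The Mrps18 paralogs, related proteins that occupy different places on the ribosome, were not parallel. Mrps18c, the small-subunit form with a bacterial counterpart, was at 67.0 TMM CPM in the naive control, 61.3 in No treatment, 47.4 in MEP1+CMC, 37.7 in MEP1+Metformin, 58.2 in MEP1+Rapamycin and 37.9 in MEP1+Metformin+Rapamycin. Mrps18a stood at 64.0, 46.2, 49.1, 48.1, 58.9 and 50.0 TMM CPM in the same order, and Mrps18b at 41.2, 32.4, 29.3, 28.5, 36.4 and 29.8. The metformin libraries were low for Mrps18c and near MEP1+CMC for the other paralogs. Mrpl3, next to the peptidyl transferase centre, stayed between 47.8 and 57.9 TMM CPM in all 6 libraries, and Mrps30 between 30.1 and 51.4. Mrpl41 was at 45.8 TMM CPM in the naive control, 39.2 in MEP1+Rapamycin, 35.7 in MEP1+CMC, 32.6 in No treatment, 29.6 in MEP1+Metformin+Rapamycin and 27.4 in MEP1+Metformin.

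The rest of the mitochondrial translation pathway was read from gene lists, described by their medians. The 5 further proteins of this ribosome without an Mrp symbol had a median log2 ratio of -0.51 in No treatment against the naive control, -0.31 in MEP1+Metformin against MEP1+CMC and 0.18 in MEP1+Rapamycin against MEP1+CMC. Among them Gadd45gip1, a large-subunit protein, fell by 1.03 on the log2 scale in the transferred libraries (SE 0.27, edgeR adjusted p = 0.0481), while Dap3, a GTP-binding small-subunit protein, had a ratio of 0.02 in No treatment against the naive control. The 12 translation factors kept had medians from -0.05 to 0.21 over the 7 comparisons, and 1, Mrrf, the ribosome recycling factor, passed the transferred-against-naive fit, where it fell by 1.15 (SE 0.26, edgeR adjusted p = 0.0286). The 18 mitochondrial aminoacyl-tRNA synthetases had a median of 0.08 in MEP1+Metformin against MEP1+CMC, unlike the ribosomal proteins. Of the 18, 13 lay above 0, where 49% of all genes did. Aars2 stood highest there at 0.55, and Vars2 fell by 0.83 in the transferred libraries (SE 0.20, edgeR adjusted p = 0.0373).

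The 24 factors of ribosome assembly and rRNA modification had medians from -0.25, against the naive control, to 0.08. Ddx28, a helicase of large-subunit assembly, was lower than in MEP1+CMC in all 3 inhibitor libraries, at -0.74 with metformin, -0.92 with rapamycin and -0.90 with both. These 3 ratios share the MEP1+CMC library and are not separate observations. In the fit of the MEP1 libraries against No treatment, the log2 fold change of Ddx28 was 0.0027 (SE 0.36). Whether the inhibitor libraries were low or MEP1+CMC was high for Ddx28 was not tested. In the transferred libraries 2 of the 24 fell by edgeR, Rbfa, a small-subunit assembly factor, by 1.21 (SE 0.19, adjusted p = 0.00776) and the rRNA methyltransferase Mrm1 by 0.72 (SE 0.18, adjusted p = 0.038), and 0 rose. Of the 12 genes of mitochondrial transcription and mRNA maintenance, 1 fell, the mitochondrial RNA polymerase Polrmt, by 0.79 (SE 0.20, edgeR adjusted p = 0.039). The fits of MEP1, metformin and rapamycin called 0 genes of these lists.

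The 13 mitochondrially encoded mRNAs, which this ribosome translates, were all below 0 in MEP1+Metformin against MEP1+CMC, where 51% of all genes were. Their median was -0.41 (mt-Nd3 -1.16). In MEP1+Metformin+Rapamycin against MEP1+Rapamycin 12 of the 13 lay below 0, where 52.6% of all genes did, and the 13 had a median of -0.66. In MEP1+Rapamycin against MEP1+CMC their median was 0.13. The mitochondrial rRNAs were not analysed here. Nuclear respiratory chain genes, 89 of 97 kept, had medians close to those of the ribosomal proteins: -0.35 against -0.24 for MEP1+Metformin against MEP1+CMC, 0.21 against 0.25 for MEP1+Rapamycin against MEP1+CMC, and -0.52 against -0.37 for both inhibitors against MEP1+Rapamycin. Cytosolic ribosomal proteins, 76 of 79 kept, stood at -0.93 in No treatment against the naive control, where the mitochondrial ones stood at -0.19, at 0.70 in MEP1+Rapamycin against MEP1+CMC, where these stood at 0.25, and at -0.22 in MEP1+Metformin against MEP1+CMC, where these stood at -0.24. In the transferred-against-naive fit 34 of the 76 cytosolic genes fell by edgeR's test, against 5 of the 78 mitochondrial ones. The share of all genes that fell in that fit and its dependence on scaling are given above. The difference between lists was not tested.

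**Figure D4:**
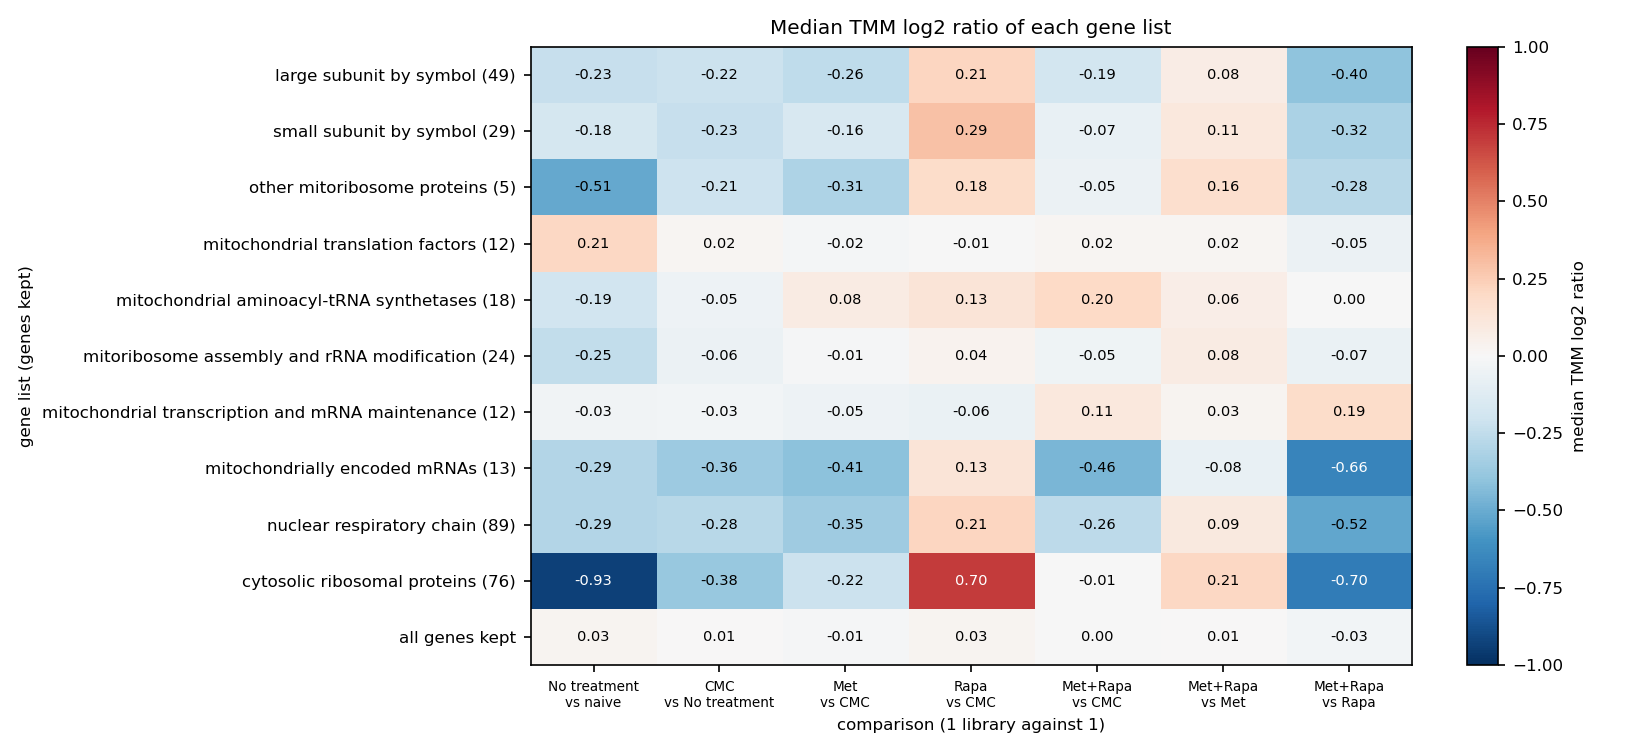
Median TMM log2 ratio of each gene list (rows, number of genes kept in brackets) in each comparison of 1 library against another (columns), with color from blue (lower) to red (higher) and the value printed. The rows of the mitochondrial ribosomal and respiratory chain genes run alike, while cytosolic ribosomal proteins go furthest, at -0.93 against the naive control and 0.70 with rapamycin against MEP1+CMC.

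Exon length moved with these ratios. Over all genes kept, Spearman's rho between exon length and log2 ratio was 0.33 in MEP1+Metformin against MEP1+CMC and 0.32 in MEP1+Metformin+Rapamycin against MEP1+Rapamycin, -0.12 in MEP1+Rapamycin against MEP1+CMC and 0.10 in No treatment against the naive control. The mitochondrial ribosomal protein genes have short transcripts, with a median of 2068 bases against 3690 over all genes kept. With the length trend of all genes removed, their median was -0.14 in place of -0.24 for MEP1+Metformin against MEP1+CMC, -0.18 in place of -0.37 for both inhibitors against MEP1+Rapamycin, and 0.11 in place of 0.25 for MEP1+Rapamycin against MEP1+CMC. All 7 medians kept their sign. With all genes cut into 10 bins of length, bin 2 from the short end held 23 of the genes, and their median in MEP1+Metformin against MEP1+CMC was -0.27 and that of all genes -0.20. In bin 9, with only 8 of the genes, it was -0.17 where all genes stood at 0.12.

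**Figure D5:**
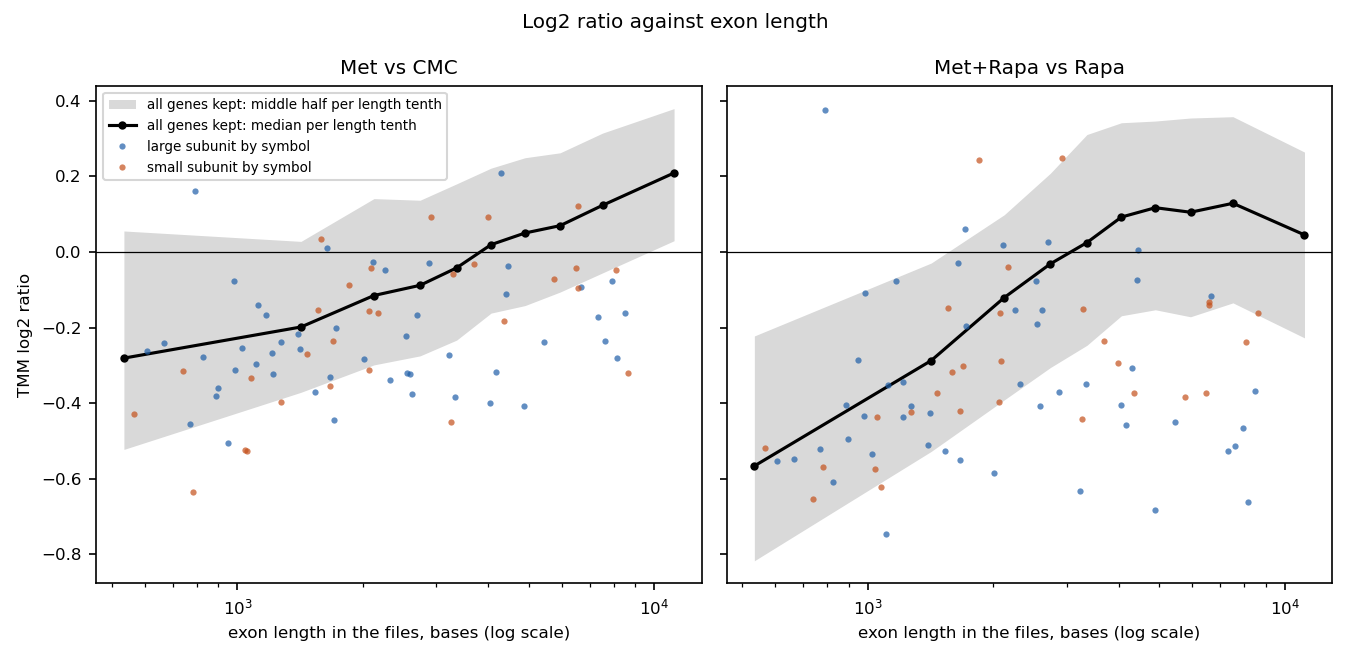
TMM log2 ratio against exon length (log axis) for metformin without rapamycin (left) and with it (right); colored points are mitochondrial ribosomal protein genes, the black line the median of all genes kept in each of 10 bins of length and the grey band their quartiles. Short genes lie low as a whole, and the ribosomal protein genes lie near the line at short lengths and mostly below it at long ones, as in bin 9, where they had a median of -0.17 and all genes 0.12 on the left.

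Several of the genes share their start region with another gene. Within 1000 bases and on opposite strands, 15 of the 78 genes (19.2%) started head to head with another protein-coding gene kept, where 9.59% of the 10960 protein-coding genes kept did. Mrps12 starts 172 bases from Sars2, the mitochondrial seryl-tRNA synthetase, and Mrpl43 116 bases from Twnk, the helicase of mitochondrial DNA. Mrps12 and Sars2 stood at -0.52 and 0.38 in MEP1+Metformin against MEP1+CMC, on opposite sides of 0, and at 0.29 and 0.64 in MEP1+Rapamycin against MEP1+CMC. Mrpl32 and Psma2, a proteasome subunit 205 bases away, stood at -0.46 and -0.48 in the metformin comparison. Mrpl30 and Mitd1, 66 bases apart, stood at 0.53 and 0.56 in MEP1+Rapamycin against MEP1+CMC and at -0.63 and -0.60 in MEP1+Metformin+Rapamycin against MEP1+Rapamycin. Mrpl49 starts 137 bases from Fau, which encodes a cytosolic ribosomal protein, and in No treatment against the naive control they stood at 0.01 and -0.89. The bounds of Mrpl46 and Mrps11 overlap on opposite strands, and whether the counting used strand is not given in the sources used here, so reads in the overlap cannot be assigned.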

How the data were processed

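RNA of sorted T cells was sequenced, 1 library per condition, from ultra-low-input preparations per the labels' protocols; strand is not given in the sources used here. Per the submitters' processing notes, reads were trimmed with Trimmomatic 0.36, aligned with STAR 2.5.2b to GRCm38 and counted with featureCounts of Subread 1.5.2. The authors deposited raw counts per Ensembl gene, 1 file per library, with exon lengths per the file headers. Symbols came from GENCODE M21 on GRCm38, which held 49056 of the 49315 identifiers, and 65 of the 78 genes had the same bounds there. The 78 genes and all lists were chosen with earlier results of these data known.

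Genes with at least 2 CPM and 10 counts in the same library were kept (12928). TMM factors (edgeR 4.0.16, R 4.3.3) were computed on these genes, not on all genes in the files, since MEP1+Metformin and MEP1+Rapamycin have counts for many more low-count genes. Pairs of libraries were compared by the TMM log2 ratio with an exact Clopper-Pearson 95% interval, with no p. Fits across libraries used edgeR's quasi-likelihood test, robust, with Benjamini-Hochberg adjustment and a threshold of 0.05; the spread there is that between differently treated libraries. On simulated data with 200 genes changed 4-fold, 53% were recovered in the transferred-against-naive fit, 85.5% in the MEP1 fit, 98% for metformin and 94.5% for rapamycin. Smaller changes were not simulated for these fits. The mitochondrial ribosomal protein genes had median log2 fold changes of only -0.28 for metformin and 0.15 for rapamycin. The shares recovered therefore do not tell how often changes of that size would pass. Named genes were the 6 highest and 6 lowest in each comparison with at least 10 TMM CPM in 1 of its libraries, the genes called or lowest in p in each fit, the 5 highest and 5 lowest RPKM and a few of set role. Alternatives were library totals, DESeq2 1.42.0 size factors and Wald test, TMM over all genes, 2-fold, other filters, edgeR's legacy fit, removal of the length trend and leaving out a library.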

Additional observations from a re-analysis of the deposited data

How the results depend on the processing

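No paired analysis was possible because each condition is 1 library and the labels give no replicate numbers. Leaving out a library in the metformin and rapamycin terms leaves 0 residual degrees of freedom and was not run. Where a value changed, the cause was not tested unless the construction of the alternative shows it.

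Scaling moved medians of the 78 genes and of all genes together. In No treatment against the naive control the median turned to 0.286 with library totals (all genes 0.505, 11 genes higher and 0 lower) and to 0.059 without the rRNA-like loci in the totals (all genes 0.278, 6 higher and 3 lower, 9 called), and was -0.23 with DESeq2 size factors (15 called), -0.132 with TMM over all genes and -0.119 with the length trend removed. MEP1+CMC against No treatment gave -0.159 with totals, -0.158 without the rRNA-like loci, -0.267 with TMM over all genes and -0.13 with the trend removed; both kinds of totals left 0 called. MEP1+Metformin against MEP1+CMC gave -0.118, -0.116, -0.261 (DESeq2), -0.269 (TMM over all genes) and -0.136 (trend removed), with 0 called by totals of either kind and with the trend removed. MEP1+Rapamycin against MEP1+CMC gave 0.221 (DESeq2, 0 called), 0.0967 (TMM over all genes, 0 called), 0.291 (without rRNA-like loci, 2 called) and 0.106 (trend removed, 2 called). Both inhibitors against MEP1+CMC gave -0.0164, -0.0139, -0.148 (DESeq2) and -0.0818 (trend removed), with 0 called by totals of either kind and with the trend removed. Both against MEP1+Metformin gave 0.109 (TMM over all genes) and 0.0598 (trend removed). Both against MEP1+Rapamycin gave -0.264 (totals, 1 called), -0.291 (without rRNA-like loci, 2 called), -0.355 (DESeq2), -0.219 (TMM over all genes, 1 called) and -0.181 (trend removed).

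With No treatment in place of MEP1+CMC the medians were -0.469 for metformin (24 called), -0.0321 for rapamycin (0 called) and -0.355 for both (13 called). At 2-fold, 2 genes were called in No treatment against the naive control and 0 in the other comparisons. For the transferred-against-naive fit, the number of all genes called also changed with every alternative. The counts that follow therefore reflect the setting as well as the 78 genes. In the transferred-against-naive fit library totals called 5 higher and 0 lower; the legacy fit called 8, no filter 3, the stricter filter 12 and DESeq2's Wald test 15, and leaving out 1 library gave 0 to 18. The MEP1, metformin and rapamycin fits called 0 of the 78 under every alternative run. Their counts at an unadjusted p below 0.05 did vary, from 0 to 28 lower for MEP1, 5 to 36 lower for metformin and 0 to 6 higher for rapamycin. The lowest member count, 53, limits Mrpl53 most.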

Other observations

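Pseudogenes of the family held few counts. Mrpl23-ps1 had 109 to 247 counts per library, Mrpl48-ps 14 to 31, Mrps36-ps1 11 to 29, Mrps36-ps2 1 to 18 and Mrps36-ps3 0. Whether reads of these copies were counted at Mrpl23, Mrpl48 or Mrps36 was not tested.

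Of the 78 genes, 11 lay on chromosome 11, 8 on chromosome 17 and 7 on chromosome 6. At the ends of head-to-head pairs, Mrps18c and Helq, a DNA helicase 29 bases away, stood at -0.33 and 0.43 in MEP1+Metformin against MEP1+CMC. Mrps34 and Eme2, an endonuclease subunit also 29 bases away, stood at -0.16 and 0.74 in that comparison, and Eme2 had 12.4 TMM CPM in No treatment and 31.6 in MEP1+Metformin.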
